A study of Mus musculus with 9 samples.

Results

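The genes described here are 39 mouse genes of amino acid supply and of the stress response that is run by the transcription factor ATF4. They were picked by name, through the annotated symbols of the array features, with a final 1 allowed for the tRNA synthetases. The rule used no measured value, but the genes were chosen with earlier results of these data known. On 6 arrays 37 of them were measured, by 43 features among 16504 named genes. On 3 arrays of a second platform 38 of them were measured, by 73 features among 19087 named genes. Trib3 was measured on the second platform only. Pycr1 was measured on neither platform and enters only the search of promoters below. Cells were Neuro2A, a mouse neuroblastoma line, and the study asked which genes are regulated by CCAT, a C-terminal piece of the calcium channel CaV1.2. In the first group cells received a PA1 plasmid encoding the terminal 503 amino acids of CaV1.2 (full-length CCAT, FL), and their RNA was set against that of untransfected cells on 3 arrays. In the second group the plasmid encoded only the terminal 280 amino acids (DTA, also written DTS in the labels), again with untransfected cells as the control on 3 arrays. In the third group FL cells were set against cells given the empty PA1 plasmid, on 3 arrays. Every transfected culture, that with empty plasmid included, was treated with Lipofectamine 2000 (a lipid transfection reagent, spelled Lipofoctamine in the labels) and sorted for GFP 24 hours later, and untransfected cells passed through the sorter too. The labels describe DTA as lacking the activation domain, and add that it was later found to activate weakly. All cells were grown in a medium with added non-essential amino acids and serum.

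When amino acids run short, unfolded protein builds up in the endoplasmic reticulum, or double-stranded RNA is sensed, kinases phosphorylate the translation factor eIF2. General protein synthesis then slows while the ATF4 message is translated better, a programme known as the integrated stress response. ATF4 pairs with C/EBP proteins on a composite DNA site, the C/EBP-ATF response element, near genes that make, import and recycle amino acids and near those of many cytosolic tRNA synthetases, the enzymes that join each amino acid to its tRNA. Because ATF4 is controlled at translation, its mRNA is an incomplete guide to its activity.

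The values are log2 ratios of the 2 channels of an array, so they hold no expression levels, and a ratio of 1 is a 2-fold difference. CCAT RNA carried Cy3 and control RNA carried Cy5 on every array. Against untransfected cells, dye, transfection and CCAT cannot be told apart. Against empty vector, where both cultures were transfected, dye and CCAT cannot be told apart. A dye effect common to all arrays cancels in FL minus DTA. The order of the ratio is not given in the sources used here. It is read as CCAT over control, which is likely but not settled, and every direction below turns together if it is the reverse. The basis is that the design text says the plasmid alone raised some genes, while 17 of 18 interferon-stimulated genes had positive ratios past the threshold with FL against untransfected cells (median 1.94), against a median of 0.18 over 19 such genes against empty vector. A gene was called higher or lower at an adjusted p under 0.05 in limma, with Benjamini-Hochberg adjustment over all named genes. The labels do not say that arrays of a group came from separate cultures, so a p-value here reflects only how much 3 arrays differ, a spread that may be technical.

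Between arrays of 1 group the ratios of named genes correlated at 0.84 to 0.90 (FL), at 0.92 to 0.95 (DTA) and, with empty vector as the control, at 0.81 to 0.83. A typical gene had an SD of 0.0712 over the FL arrays, 0.0413 over the DTA arrays and 0.0408 over the arrays with empty vector (medians). The labels of DTA replicate 3 conflict: its treatment text gives the full-length construct but its title and source give the truncation. Also, the treatment text of the control channel of 1 array against empty vector names the other dye. Without DTA replicate 3, 31 members were called with DTA in place of 34, and 14 in FL minus DTA in place of 20. Only ratios were used, so that the presence of the defining neuroblast genes could not be checked as levels. Of 10 neuroblast and sympathoadrenal markers 4 were called higher and 5 lower with FL, and 4 higher and 3 lower with DTA. Shares over all named genes were 34.7% higher and 35.1% lower with FL, and 35.7% and 36.1% with DTA.

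The response element was looked for as the letters TGATGNAA, on both strands, in a window from 250 bases before to 50 bases after each gene start in RefSeq (GRCm38.p6). It was present in 13 of the 32 members in that table (40.6%) and in 4.51% of all 27025 genes. The members include many textbook ATF4 targets, so this share describes how they were picked. A second motif, the endoplasmic reticulum stress element ERSE, was in 0 of the 32 members and in 0.137% of all genes, so the motifs overlapped in no member. The stretches below, read 5′ to 3′ on the strand of the gene, are shown because they carry the element before the gene start and belong to members whose ratios went different ways. Capitals mark the 8 matching letters. Chac1 lies at chr2:119351023-119351082 on the plus strand, Vldlr at chr19:27216794-27216853 on the plus strand, Atf3 at chr1:191183410-191183469 on the minus strand, Tars at chr15:11399659-11399699 on the minus strand, Asns at chr6:7693210-7693258 on the minus strand and Gars at chr6:55037945-55038000 on the plus strand.
Chac1: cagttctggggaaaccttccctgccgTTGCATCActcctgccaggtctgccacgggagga
Vldlr: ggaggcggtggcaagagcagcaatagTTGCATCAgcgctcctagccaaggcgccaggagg
Atf3: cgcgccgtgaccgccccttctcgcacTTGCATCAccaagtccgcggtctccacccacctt
Tars: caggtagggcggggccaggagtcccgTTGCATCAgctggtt
Asns: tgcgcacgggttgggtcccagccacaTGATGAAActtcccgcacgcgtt
Gars: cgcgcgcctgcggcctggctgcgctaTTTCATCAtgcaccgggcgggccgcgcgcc

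The first 4 carry the same 8 letters, TTGCATCA, and those of Asns and Gars, TGATGAAA and TTTCATCA, are each other's reverse complement. Chac1 and Vldlr were called lower with both constructs, Tars was called higher with FL, and Atf3 was called higher with DTA. Of the 11 members with a match that were measured against untransfected cells, 4 were called higher and 4 lower with FL, and 7 higher and 2 lower with DTA. Of the 19 members without a match 12 were called higher and 5 lower with FL, and 13 higher and 5 lower with DTA. Over all named genes 34.7% were called higher and 35.1% lower with FL, and 35.7% higher and 36.1% lower with DTA. A match is not a shown binding site, and its absence says only that these letters are not in this window.

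Against untransfected cells the members went both ways, with more of them higher than lower. With FL 21 of 37 were called higher and 10 lower, where 34.7% of all named genes were called higher, 35.1% lower and 69.8% either way. With DTA 25 were called higher and 9 lower, where 35.7% of all named genes were called higher, 36.1% lower and 71.8% either way. So many genes passed the threshold that a call by itself says little about a member. The median over the members was 0.112 with FL and 0.168 with DTA, beside −0.00194 and −0.00612 over all named genes. Sizes were moderate: 3 members were called higher by at least 1.5-fold and 1 lower with FL, and 4 higher and 2 lower with DTA, where 5.19% and 3.28% of all genes (8.47% either way) were with FL, and 6.8% and 3.87% (10.7% either way) with DTA. Since RNA of whole sorted populations was measured, fewer cells expressing a gene and less of its RNA per cell cannot be told apart.

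Against empty vector the ratios were smaller. Of 38 members 15 were called higher and 8 lower, where 30.6% of all named genes were called higher, 32.8% lower and 63.4% either way, and 0 members were called and at least 1.5-fold apart, where 2.13% of all genes were (0.461% higher, 1.67% lower). The median over the members was 0.0339 and that over all named genes −0.00476. The median size of a ratio regardless of sign was 0.101 for the members and 0.139 for all genes, whereas with FL against untransfected cells it was 0.27 and 0.203. The number of members called lower against empty vector was 5 without replicate 1 and 5 without replicate 3.

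**Figure D1:**
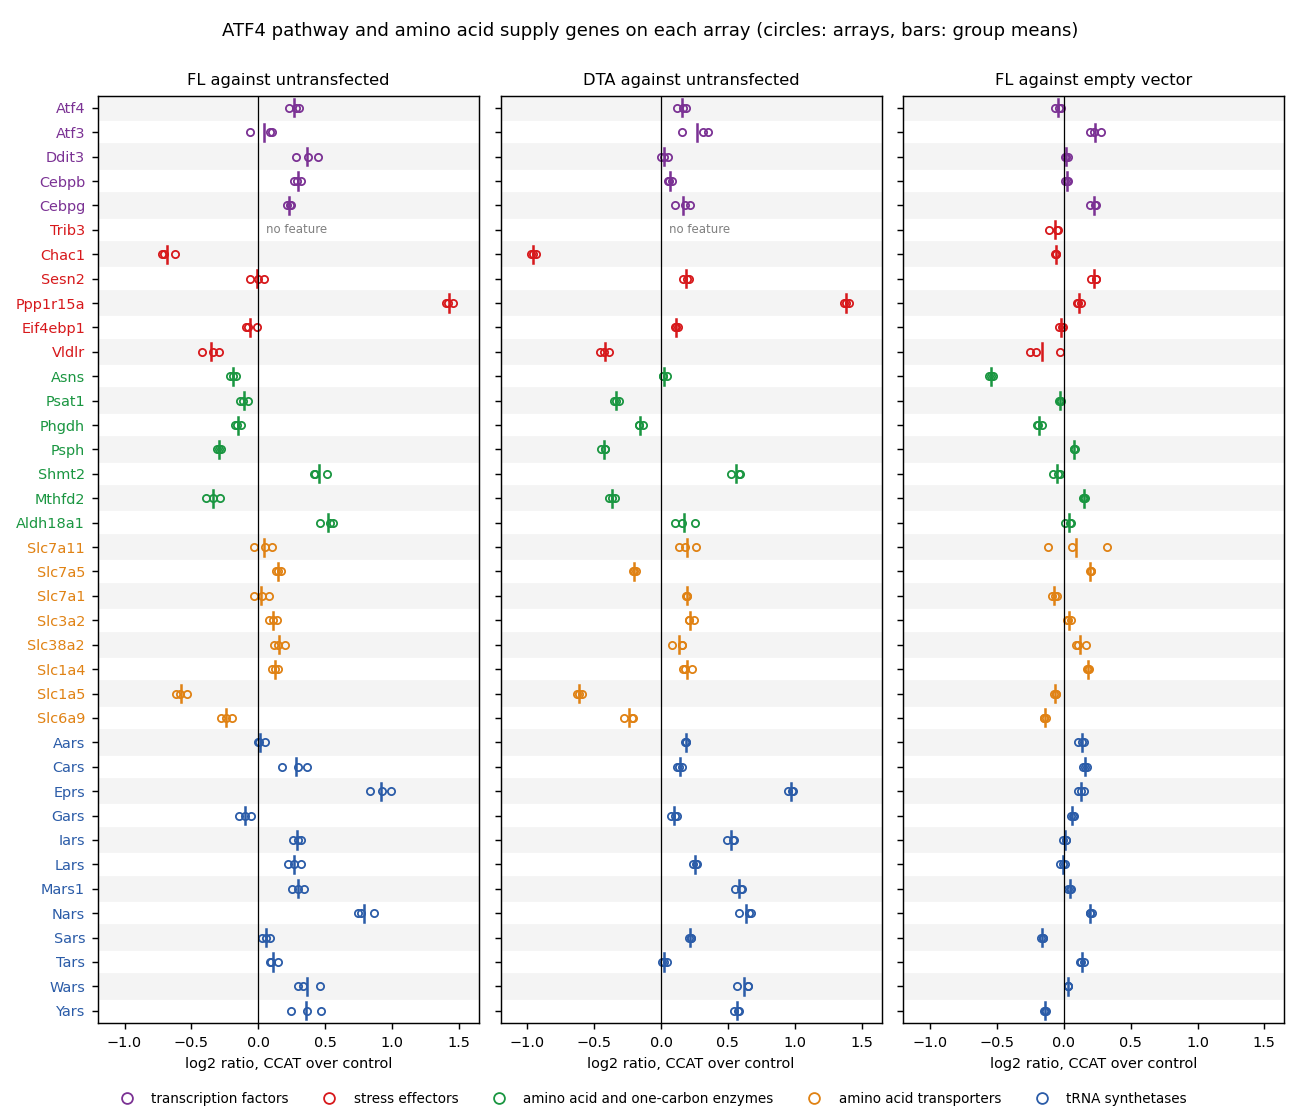
Log2 ratio of each member on each array (circles) and the mean of 3 arrays (bars), by role, in panels for FL over untransfected, DTA over untransfected and FL over empty vector. Ppp1r15a stood at 1.43 and 1.39 with FL and DTA and at 0.11 against empty vector. There all bars except that of Asns (−0.55) lie between −0.19 (Phgdh) and 0.23 (Atf3).

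The 5 transcription factors all had mean ratios above 0 against untransfected cells, and 4 were called higher with each construct. Among all named genes 34.7% were called higher with FL and 35.7% with DTA. Atf4 itself had ratios of 0.30, 0.23 and 0.28 with FL and of 0.12, 0.19 and 0.17 with DTA. The arrays of FL all lay above those of DTA, and the mean was 0.27 ± 0.04 with FL and 0.16 ± 0.03 with DTA (SD, n = 3 each), both called higher. Against empty vector Atf4 stood at −0.07, −0.02 and −0.04, close to 0 on every array, with a mean of −0.04 (95% interval −0.09 to 0.01) that did not pass the threshold (limma adjusted p = 0.0984).

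Ddit3 codes for CHOP, a C/EBP-family factor tied to cell death under prolonged stress. It had ratios of 0.37, 0.28 and 0.45 with FL, against 0.06, 0.02 and 0.00 with DTA. The groups did not overlap, and Ddit3 was called higher with FL (mean 0.37 ± 0.08, SD, n = 3) while its mean of 0.03 with DTA did not pass the threshold. Against empty vector its ratios were 0.01, 0.03 and 0.01, and it was not called. Cebpb, a partner of ATF4 on the composite site, followed the same order, with 0.27, 0.29 and 0.32 with FL, 0.06, 0.08 and 0.05 with DTA and a mean of 0.02 against empty vector that did not pass. Its DTA call was lost whichever DTA array was left out.

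Atf3, a stress-induced repressor and activator, showed another order. Its ratios were 0.11, 0.09 and −0.06 with FL, which straddle 0, and 0.16, 0.31 and 0.35 with DTA, which do not. It was called higher with DTA (mean 0.27 ± 0.10) and against empty vector (0.23, 0.28 and 0.20), and its mean of 0.04 ± 0.09 with FL against untransfected cells did not pass. Cebpg, the C/EBP partner that forms dimers with ATF4, was called higher in all 3 groups of arrays, its FL mean being 0.23 ± 0.02 over untransfected cells and 0.22 ± 0.02 over empty vector, and its DTA mean 0.17 ± 0.06 (SD, n = 3 each).

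Among the effectors of the stress response, Ppp1r15a had the highest ratio of any member. It codes for GADD34, the phosphatase subunit that brings back translation by removing phosphate from eIF2. Its ratios were 1.455, 1.405 and 1.418 with FL and 1.369, 1.409 and 1.381 with DTA, a narrow span in which the groups overlapped. The means of 1.43 ± 0.03 and 1.39 ± 0.02 correspond to 2.69-fold and 2.61-fold, and placed it at rank 57 with FL and 97 with DTA among 16504 genes. FL minus DTA was 0.04, with a 95% interval from −0.03 to 0.11 (limma adjusted p = 0.341). This depended on the processing, since the difference lay above that interval and was called higher after quantile normalization. Against empty vector the ratios were 0.11, 0.13 and 0.10, called higher but at only 1.08-fold, and the call was lost without replicate 2. No match to the response element lay in its window.

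Chac1, a glutathione-degrading enzyme that is widely used as a readout of ATF4 and CHOP, had the lowest ratio of any member with each construct. It stood at −0.71, −0.72 and −0.62 with FL, against −0.97, −0.93 and −0.95 with DTA. Every array was low, the groups did not overlap, and the fall was 1.61-fold with FL and 1.94-fold with DTA, at rank 330 and 110 from the lowest. Against empty vector it stood at −0.07, −0.06 and −0.06, called lower at a size of 1.04-fold, and the call was lost whichever array was left out.

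Vldlr, a lipoprotein receptor induced through ATF4 in other mouse cells, was also called lower with both constructs, at −0.42, −0.34 and −0.29 with FL and −0.39, −0.42 and −0.46 with DTA. Both of its features gave a mean near −0.35 with FL and −0.42 with DTA. Against empty vector its arrays gave −0.25, −0.03 and −0.21, with replicate 2 apart from the others, and the mean of −0.16 did not pass the threshold. Without replicate 2 it was −0.23 and was called lower.

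Sesn2, which restrains the growth kinase mTORC1 when leucine is low, and Eif4ebp1, which holds back cap-dependent translation, moved less. Sesn2 gave −0.00, −0.06 and 0.04 with FL, around 0, and 0.19, 0.21 and 0.16 with DTA, where it was called higher. Against empty vector Sesn2 was called higher, at 0.24, 0.24 and 0.20, by both of its features. Eif4ebp1 averaged −0.06 ± 0.04 with FL, which did not pass, and 0.11 ± 0.01 with DTA, called higher. Its 2 features were called in opposite directions against empty vector, at −0.16 and 0.12. Trib3, the pseudokinase induced with CHOP, was measured against empty vector only and gave −0.11, −0.04 and −0.05 (limma adjusted p = 0.0608).

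The enzymes that make amino acids and one-carbon units were more often lower than higher against untransfected cells. Of 7 measured, 5 were called lower and 2 higher with FL, and 4 lower and 2 higher with DTA, with medians of −0.152 and −0.155. Shares over all named genes were 35.1% lower and 34.7% higher with FL, and 36.1% lower and 35.7% higher with DTA. The 3 enzymes of serine synthesis all fell with both constructs. Psph, the phosphatase of the last step, gave −0.31, −0.29 and −0.28 with FL, against −0.42, −0.42 and −0.45 with DTA, and every DTA array lay below every FL array. Psat1, the aminotransferase, averaged −0.11 ± 0.03 with FL and −0.34 ± 0.02 with DTA, again without overlap. Phgdh, the dehydrogenase of the first step, averaged −0.15 ± 0.02 with FL and −0.16 ± 0.02 with DTA (SD, n = 3 each).

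Against empty vector these 3 enzymes parted. Phgdh was called lower by each of its 3 features (mean −0.19 ± 0.02), Psat1 gave a mean of −0.03 that did not pass, and Psph was called higher at 0.08, a call lost whichever array was left out. Mthfd2, a mitochondrial one-carbon enzyme that is high in dividing cells, also turned. It gave −0.39, −0.34 and −0.29 with FL and −0.39, −0.34 and −0.37 with DTA against untransfected cells, and 0.14, 0.16 and 0.15 against empty vector, called in each case.

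Shmt2 and Aldh18a1 were the enzymes called higher. Shmt2, which takes a one-carbon unit from serine in mitochondria, gave 0.43, 0.42 and 0.51 with FL and 0.52, 0.58 and 0.59 with DTA. Aldh18a1, the first enzyme of proline synthesis from glutamate, gave 0.53, 0.56 and 0.46 with FL, well above its 0.11, 0.26 and 0.16 with DTA. Neither passed the threshold against empty vector, with means of −0.05 and 0.04.

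Asns makes asparagine and is a classic ATF4 target. It gave −0.21, −0.19 and −0.17 with FL, called lower, and 0.04, 0.01 and 0.01 with DTA, not called. On each of the 3 FL arrays this ratio was one that many features shared: −0.215 was held by 88 features of replicate 1 where 35.8 were expected, −0.19 by 91 where 37.8 were expected and −0.166 by 85 where 35.6 were expected. Asns was the only member on such a value, and the part of this in its FL ratio was not tested. Against empty vector Asns gave −0.53, −0.56 and −0.55, the lowest ratio of any member there (1.46-fold lower, rank 422 from the lowest of 19087). These values were not the shared ones of those arrays, which were −0.605, −0.621 and −0.625.

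The 8 transporters went both ways, with 4 called higher and 2 lower with FL, and 5 higher and 3 lower with DTA. For all named genes the shares were 34.7% higher and 35.1% lower with FL, and 35.7% and 36.1% with DTA. Slc1a5 (ASCT2), which imports glutamine, had the lowest ratios, at −0.58, −0.61 and −0.53 with FL and −0.63, −0.62 and −0.59 with DTA. All 6 arrays were low, with falls of 1.49-fold and 1.53-fold, and against empty vector the mean was −0.06, called lower until any array was left out. Slc6a9 (GlyT1), a glycine importer, was called lower in all 3 groups of arrays, with means of −0.24 ± 0.04, −0.24 ± 0.04 and −0.14 ± 0.01 (SD, n = 3 each). Slc1a4 (ASCT1), a relative of Slc1a5 that carries alanine and serine, was called higher in all 3, with means of 0.13, 0.19 and 0.18.

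Slc7a5 (LAT1), which brings in leucine and other large neutral amino acids, was called in opposite directions with the constructs. It gave 0.14, 0.15 and 0.17 with FL, against −0.19, −0.20 and −0.21 with DTA. All FL arrays were positive and all DTA arrays negative, and the ratios against empty vector, 0.20, 0.20 and 0.19, were positive as well. Its heavy chain Slc3a2 (CD98hc), which LAT1 and the cystine carrier xCT need to reach the membrane, averaged 0.11 ± 0.03 with FL and 0.22 ± 0.02 with DTA, both called higher. Slc3a2 could not be placed against empty vector, where 1 feature gave 0.31 and the other −0.24, each called.

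The remaining carriers moved little. Slc38a2 (SNAT2), the carrier that rises when amino acids are withdrawn, was called higher with FL (0.14, 0.12 and 0.20) and DTA (0.08, 0.16 and 0.16). Slc7a1 (CAT1), an arginine and lysine importer, averaged 0.19 with DTA from 1 feature at 0.38 and another at 0.001, and its mean of 0.02 with FL did not pass. Slc7a11 (xCT), the cystine importer, was called higher with DTA at 0.18, 0.26 and 0.13, and not with FL at −0.03, 0.05 and 0.11. Against empty vector Slc7a11 had the widest spread of any member, at 0.32, −0.12 and 0.06 (SD 0.22), since 1 of its 4 features gave 1.19, −0.52 and 0.47.

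The tRNA synthetases were the role with the largest share called higher against untransfected cells. Of 12 measured, 10 were called higher and 1 lower with FL, with a median of 0.287, and 11 were called higher and 0 lower with DTA, with a median of 0.391. Against empty vector 6 were called higher and 2 lower, with a median of 0.0528. Among these 6, Aars and Eprs had features called in both directions, and Gars lost its call whichever array was left out. Over all named genes 34.7% were called higher and 35.1% lower with FL, and 35.7% and 36.1% with DTA. These shares were 30.6% and 32.8% against empty vector. The median over all named genes lay within 0.01 of 0 in each of these comparisons.

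Eprs, which joins glutamate and proline to their tRNAs as part of the multisynthetase complex, had the highest ratios of the 12. It gave 0.99, 0.93 and 0.83 with FL and 0.95, 0.99 and 0.98 with DTA, which is 1.89-fold and 1.96-fold. The groups overlapped in the average over features, while the 2 features of Eprs stood far apart, at 1.16 and 0.68 with FL and at 1.50 and 0.45 with DTA. Nars, the asparaginyl enzyme, came next with FL at 0.74, 0.77 and 0.87, against 0.58, 0.67 and 0.66 with DTA, and every FL array lay above every DTA array. It was also the synthetase with the highest mean against empty vector, at 0.19, 0.21 and 0.19.

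Wars, Yars, Mars1 and Iars, for tryptophan, tyrosine, methionine and isoleucine, had larger mean ratios under DTA than under FL. So did Gars, Aars and Sars, described below, at smaller sizes. Wars gave 0.30, 0.33 and 0.46 with FL, against 0.65, 0.65 and 0.57 with DTA. Mars1 gave 0.35, 0.29 and 0.25 with FL, against 0.55, 0.60 and 0.60 with DTA. In both genes all DTA arrays lay above all FL arrays. The means of Yars were 0.36 ± 0.11 and 0.57 ± 0.02, and those of Iars 0.29 ± 0.03 and 0.53 ± 0.03 (SD, n = 3 each). For Iars 1 feature gave 0.12 with FL and 0.61 with DTA, while the other gave 0.46 and 0.44. Against empty vector Wars, Mars1 and Iars did not pass the threshold, at 0.03, 0.04 and 0.01, and Yars was called lower, at −0.13, −0.14 and −0.15.

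The other 6 synthetases had smaller ratios or features that disagreed. Lars (leucine) averaged 0.27 with FL and 0.26 with DTA, from features at 0.52 and 0.02 with FL. Cars (cysteine) averaged 0.28 ± 0.10 with FL and 0.14 ± 0.02 with DTA, and was called higher against empty vector by all 3 of its features (mean 0.16). Tars (threonine) was called higher with FL at 0.11 and against empty vector at 0.13, and its mean of 0.02 with DTA did not pass. Sars (serine) gave means of 0.06 with FL and 0.22 with DTA, and was called lower against empty vector at −0.16. Its FL call was lost under 10 of the alternatives tried. Aars (alanine) averaged 0.02 with FL, which did not pass, and 0.18 with DTA, called higher.

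Gars, the glycyl enzyme, was the only one of these 12 synthetases called lower against untransfected cells. It gave −0.10, −0.15 and −0.05 with FL, against 0.11, 0.07 and 0.12 with DTA. The groups lay on opposite sides of 0, and both means were called, at −0.10 and 0.10. The FL call was lost without replicate 2, at −0.07, and when the FL arrays were fitted alone. The DTA call was lost without replicate 1 and without replicate 3, at 0.10 and 0.09.

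**Figure D2:**
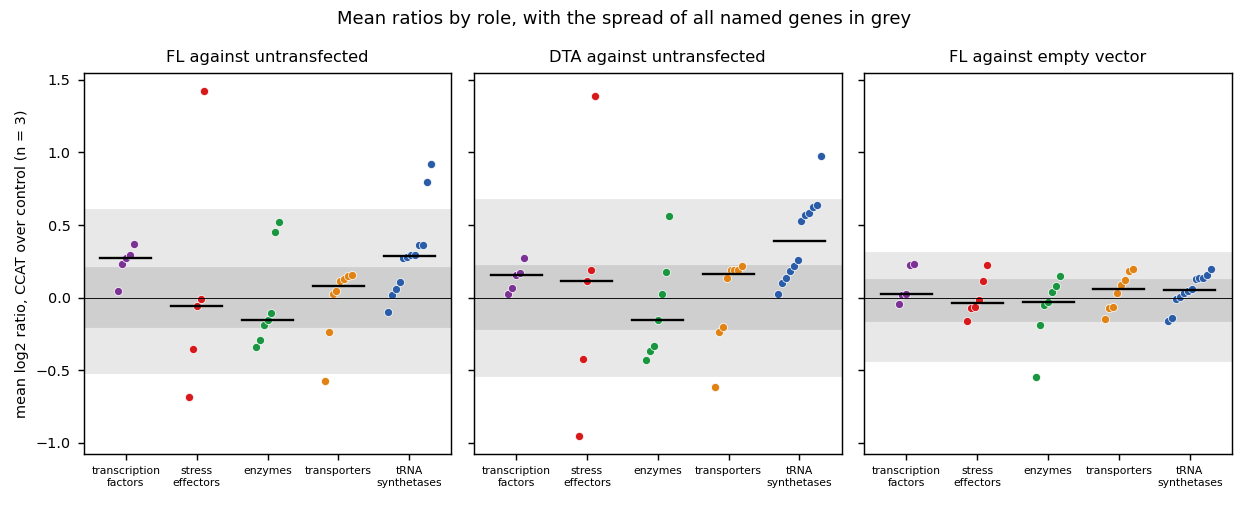
Mean log2 ratio (n = 3 arrays) of each member by role, with black bars at the median of a role, over grey bands that span the quartiles and the 5th to 95th percentile of all named genes. The synthetase medians of 0.287 and 0.391 lie above the inner band with FL and DTA. Ppp1r15a and Eprs lie above the outer band with both constructs and Nars with FL, while Chac1 and Slc1a5 lie below it with both. Against empty vector Asns alone lies outside it.

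The difference between the constructs was taken as FL minus DTA within the 6 arrays that share a platform and a control. Of 37 members 8 were called higher with FL than with DTA and 12 lower, where 18.2% of all named genes were called higher, 16.1% lower and 34.2% either way. The 3 arrays of FL did not overlap with those of DTA for 27 members, 11 with FL higher and 16 with FL lower, where this was so for 50% of all genes, 26% with FL higher and 24% with FL lower. The count of members called was 14 without DTA replicate 2 and 14 without DTA replicate 3. No member was called and at least 1.5-fold apart, where 2.07% of all genes were (0.521% higher, 1.55% lower).

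The members higher with FL came from all 5 roles. They were Slc7a5 (0.35, limma adjusted p = 0.000852), Aldh18a1 (0.34), Ddit3 (0.34), Chac1 (0.27), Cebpb (0.23), Psat1 (0.23), Nars (0.16) and Psph (0.14). For Chac1, Psat1 and Psph a positive difference means a smaller fall with FL than with DTA. The difference of Ddit3 had a 95% interval from 0.22 to 0.46 (limma adjusted p = 0.00445). Nars lost its call without FL replicate 2 or 3 and without any DTA array, at differences from 0.12 to 0.17. Psph lost its call without DTA replicate 2 or 3.

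Among the members lower with FL, 7 of 12 were tRNA synthetases. These were Mars1 (−0.29), Wars (−0.26), Iars (−0.23), Yars (−0.21), Gars (−0.20), Aars (−0.17) and Sars (−0.16), and the median over all 12 synthetases measured was −0.163, beside 0.0026 over all named genes. Of 10 other cytosolic synthetases and complex members, 3 were called higher and 2 lower in FL minus DTA, with a median of −0.0259. Of 18 mitochondrial synthetases 3 were called higher and 2 lower, with a median of −0.0137. The other 5 members lower with FL were Asns (−0.21), Sesn2 (−0.20), Eif4ebp1 (−0.17), Slc7a1 (−0.17) and Slc3a2 (−0.11). The call of Yars was lost under 7 of the alternatives tried and that of Slc3a2 under 10. For Iars the difference was carried by 1 feature, at −0.49, while the other gave 0.02. For Eprs the features pointed opposite ways, at −0.35 (called lower) and 0.23 (limma adjusted p = 0.0531), so that the averaged difference of −0.06 (95% interval −0.17 to 0.06) describes neither. For Slc7a1 1 feature gave −0.31 and the other −0.03, and the averaged call was lost whichever DTA array was left out.

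Several members did not pass the threshold between the constructs. Atf4 differed by 0.11 (95% interval 0.03 to 0.20, limma adjusted p = 0.0522) and Atf3 by −0.23 (−0.40 to −0.06, limma adjusted p = 0.0527), each just outside the threshold. After quantile normalization Atf4 differed by 0.13 and Ppp1r15a by 0.21, and both were called higher. Atf3 was called, at −0.29, without DTA replicate 1. Intervals for Phgdh (−0.07 to 0.07), Slc1a5 (−0.05 to 0.12) and Slc6a9 (−0.09 to 0.09) give the range of differences these arrays allow.

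**Figure D3:**
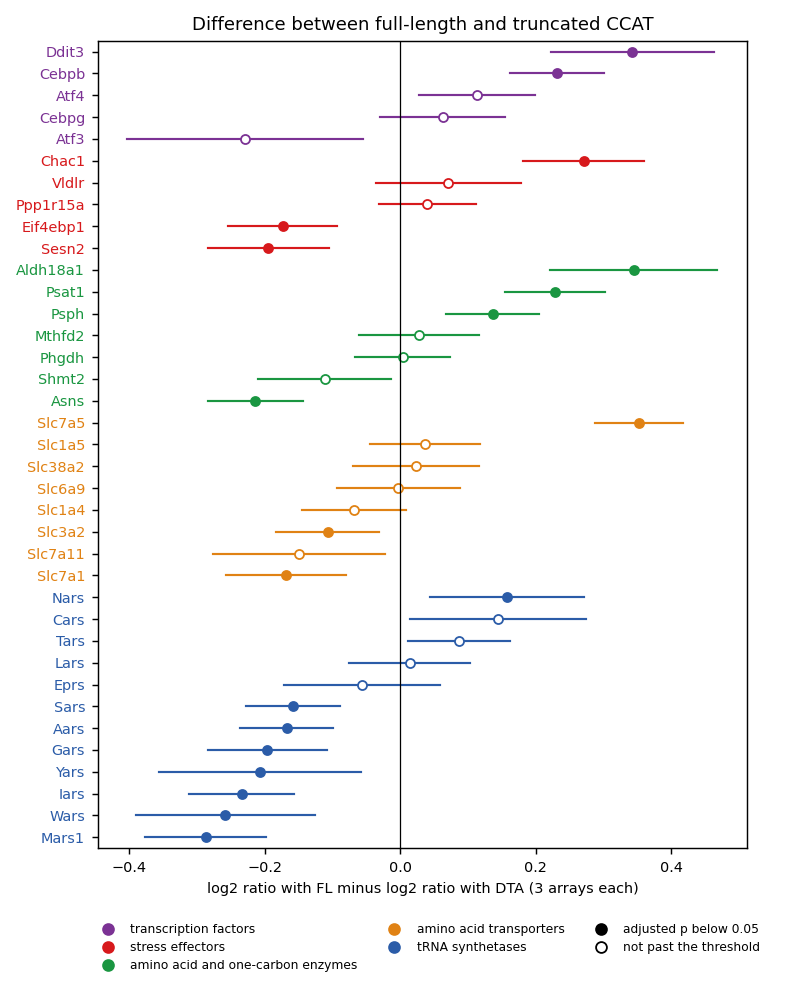
Difference of the mean log2 ratios, FL minus DTA (3 arrays each), with 95% intervals from limma, by role, filled where the adjusted p was under 0.05. Slc7a5, Aldh18a1 and Ddit3 lie farthest to the right at 0.34 to 0.35, and 7 of the 12 synthetases are filled on the left, down to −0.29 for Mars1.

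On both platforms 37 members and 16328 named genes in all were measured. With both controls set side by side, 7 of these members were called higher in all 3 groups of arrays: Cars, Cebpg, Eprs, Nars, Ppp1r15a, Slc1a4 and Slc38a2. Over all genes this share was 14%, and the comparisons of FL and DTA with untransfected cells share that control. The empty-vector call of Ppp1r15a was lost without replicate 2. Eprs and Slc38a2 each had features called both higher and lower against empty vector, and for Slc38a2 only the feature at 0.48 was called higher. In the same way 4 members were called lower in all 3 groups, Chac1, Phgdh, Slc1a5 and Slc6a9, where the share over all genes was 13.7%. The empty-vector calls of Chac1 and Slc1a5 were lost whichever array was left out. In addition 5 members were called in opposite directions with FL against the 2 controls, where 10.2% of all genes were: Mthfd2 and Psph were lower against untransfected cells and higher against empty vector, as was Gars, while Sars and Yars were higher against untransfected cells and lower against empty vector. The empty-vector calls of Gars and Psph were lost whichever array was left out. The controls were measured on different platforms with different probes, and platform and control cannot be told apart in this contrast.

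Probes of 1 gene disagreed in size on both platforms, and in direction of call on the second. Of 21 members with several features on the second platform, 7 had features called both higher and lower: Aars, Eif4ebp1, Eprs, Iars, Lars, Slc38a2 and Slc3a2. The widest case there was Aars, whose 5 features ran from −0.15 to 0.52. Its average of 0.13 was called higher while 3 of the 5 features lay below 0, at −0.15, −0.07 and −0.06. Eprs ran from −0.09 to 0.32 over 4 features, and Slc38a2 from −0.06 to 0.48 over 4. The members whose features agreed included Cebpg (0.18 to 0.29 over 3), Phgdh (−0.21 to −0.17 over 3), Cars (0.11 to 0.19 over 3) and Slc1a4 (0.12 to 0.24 over 2). On the first platform 6 members had several features, and none had features called both ways against untransfected cells. Their features were not closer together, with a median spread of 0.244 with FL and 0.257 with DTA, against 0.142 on the second platform. The largest spread was 1.06 on the first platform (Eprs with DTA) and 0.669 on the second.

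**Figure D4:**
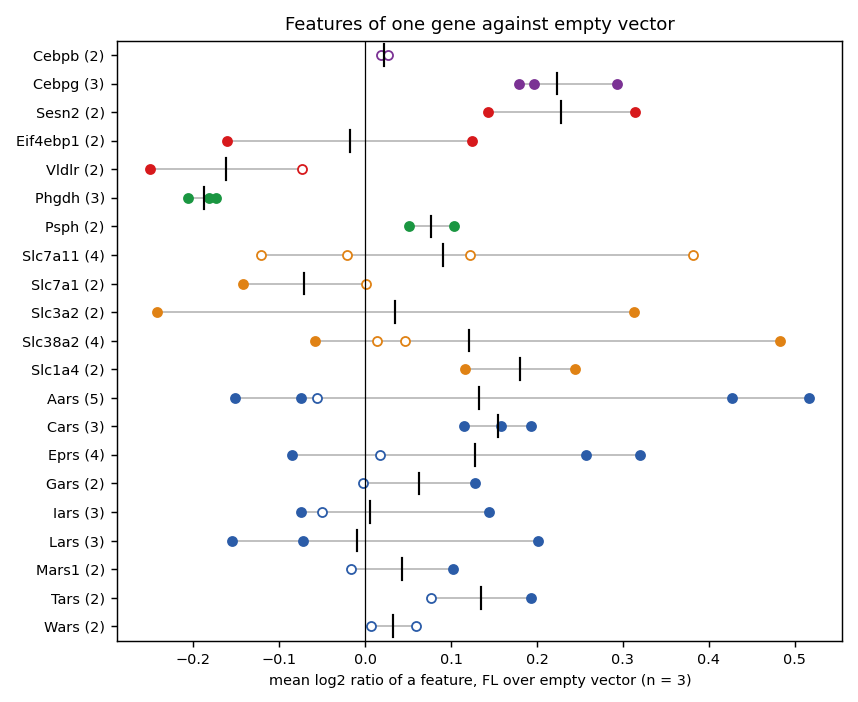
Mean log2 ratio (n = 3 arrays) of each feature of the 21 members with several features, FL over empty vector, with black bars at the average, filled where the adjusted p was under 0.05 and the number of features in brackets. Aars, Eprs, Slc38a2 and Slc3a2 have filled points on both sides of 0, while all points of Cebpg, Phgdh, Cars and Slc1a4 lie on one side.

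Other genes of the pathway, listed apart from the members, were tested in the same fits. Like the members, these lists were chosen with earlier results of these data known. Over all named genes 34.7% were called higher and 35.1% lower with FL, and 35.7% and 36.1% with DTA. The shares were 18.2% and 16.1% in FL minus DTA, and 30.6% and 32.8% against empty vector. Of 28 further ATF4 targets 21 were called higher and 4 lower with FL (median 0.295), and 16 higher and 7 lower with DTA (median 0.126). Ero1a, which oxidises disulfide bonds in the endoplasmic reticulum, gave 1.43, 1.44 and 1.46 with FL, against 0.68, 0.70 and 0.64 with DTA. Ddit4 (REDD1), an inhibitor of mTORC1, gave 1.21, 1.28 and 1.26 with FL, against 0.85, 0.84 and 0.81 with DTA. Both were far apart between the constructs, and FL minus DTA over this list had 11 genes called higher and 2 lower (median 0.138), among them Ero1a (0.77), Gadd45a (0.57), Ddit4 (0.42) and Gpt2 (0.40). The autophagy gene Map1lc3b stood at 0.51 and 0.49 with FL and DTA. Cth, the last enzyme of cysteine synthesis by transsulfuration, was called lower, at −0.37 with FL and −0.73 with DTA. Against empty vector 15 of 29 were called higher and 4 lower, with Ero1a (0.30), Gpt2 (0.22) and Herpud1 (0.22) among those higher and Jdp2 among those lower, at −0.65.

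The kinases and subunits upstream of ATF4 were mixed. Of 15 genes of eIF2 and its sensors 8 were called higher and 4 lower with FL, 8 and 3 with DTA, and 8 and 2 against empty vector. In the same order 34.7% and 35.1%, 35.7% and 36.1%, and 30.6% and 32.8% of all named genes were called. Dnajc3, which restrains eIF2 kinases and serves as a chaperone, was high with both constructs, at 1.04 with FL and 1.28 with DTA. Gcn1, the partner of the amino acid sensor GCN2, stood at 0.59 and 0.90, and the adaptor Nck1 at −0.68 and −0.89. Eif2ak2 (PKR), the sensor of double-stranded RNA and an interferon-stimulated gene, was higher with FL than with DTA by 0.50 and was called higher against empty vector at 0.36, 0.42 and 0.31. Ppp1r15b, the constitutive relative of Ppp1r15a, was higher with FL than with DTA by 0.25 and higher against empty vector at 0.24.

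The other cytosolic synthetases and members of their complex were also called higher more often than lower. Of 10 measured, 7 were called higher and 3 lower with FL, and 7 higher and 3 lower with DTA, with medians of 0.244 and 0.337. Among all named genes 34.7% were called higher and 35.1% lower with FL, and 35.7% and 36.1% with DTA. Rars (arginine) gave 0.75, 0.72 and 0.75 with FL, against 0.59, 0.61 and 0.59 with DTA, and was called higher against empty vector at 0.28. Hars (histidine) stood at 0.69, 0.66 and 0.28 in the same order of groups, and Kars (lysine) at 0.56 with FL and 0.64 with DTA. The 3 called lower with both constructs were Eef1e1, a scaffold of the multisynthetase complex (−0.41 with FL and −0.62 with DTA), Farsa, a subunit of the phenylalanyl enzyme (−0.63 and −0.44), and Qars, for glutamine (−0.20 and −0.09), of which Qars was named after its values were seen. Of 18 mitochondrial synthetases measured, 5 were called higher and 5 lower with FL (median −0.0277) and 6 and 6 with DTA (median 0.039). Lars2, at −0.62 against empty vector, lay on the value shared by many features of those arrays.

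Among 17 other enzymes of serine, one-carbon, proline and asparagine metabolism 12 were called higher and 3 lower with FL, and 12 and 3 with DTA, while 7 and 7 were called against empty vector. Over all named genes 34.7% were called higher and 35.1% lower with FL, and 35.7% and 36.1% with DTA. The shares were 30.6% and 32.8% against empty vector. Dld, a shared subunit of glycine cleavage and of pyruvate dehydrogenase, stood at 0.65 with FL and 0.62 with DTA. Gldc, the glycine decarboxylase, was called higher against empty vector at 0.44, 0.43 and 0.41, and Prodh, which degrades proline, was called lower there at −0.63, −0.54 and −0.56. Of 27 other amino acid transporters 10 were called higher and 10 lower with FL, and 11 and 8 with DTA. The cationic carrier Slc7a3 stood at −0.46 with FL and −0.70 with DTA, and Slc7a6 at −0.57 and −0.54. Against empty vector 5 of 30 were called higher and 8 lower, with Slc7a4 at −0.78.

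Genes of 2 other responses moved in the same arrays. For comparison, 34.7% of all named genes were called higher and 35.1% lower with FL, and 35.7% and 36.1% with DTA. The shares were 30.6% and 32.8% against empty vector. Of 20 genes of endoplasmic reticulum chaperones and the unfolded protein response 18 were called higher and 0 lower with FL, 11 higher and 4 lower with DTA, and 10 higher and 2 lower against empty vector. Of 18 interferon-stimulated genes 17 were called higher with FL and 15 with DTA, with 0 lower, and 13 of 19 were called higher against empty vector. Their part in the ratios of the members was not tested. Of the marker lists of other cell types, glia had 1 of 6 called higher and 1 lower with FL, and 0 higher and 1 lower with DTA. Fibroblast markers had 1 of 7 higher and 4 lower with FL, and 1 higher and 2 lower with DTA, and immune markers 1 of 5 higher and 2 lower with FL, and 2 and 2 with DTA. Their part was not tested either.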

How the data were processed

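RNA was measured on 9 Agilent arrays, each with 2 colours. The authors deposited log10 ratios, computed by the Rosetta Luminator software per the labels. That the log is base 10 was taken from a floor at exactly −2 in the FL columns. How background and dyes were handled before deposit, and which channel is the numerator, are not given in the sources used here. Ratios were converted to log2, features with 1 gene symbol in the platform annotation (18218 on the 6 arrays, 32042 on the 3) were kept, and features of a gene were averaged. The test was limma's moderated linear model (version 3.58.1, R 4.3.3) with Benjamini-Hochberg adjustment over all named genes and a threshold of 0.05. The FL and DTA arrays against untransfected cells were fitted together (4 residual degrees of freedom), and the arrays against empty vector separately (2). The number of arrays limits the precision. The members and lists were chosen with earlier results of these data known. All members are accounted for, and of each further list up to 4 genes per comparison could be named, those with the smallest p among called genes with every array in 1 direction (in FL minus DTA, with groups that do not overlap). A value counted as shared was the log10 ratio whose count of features within 0.00025 stood out most from the density within 0.005 around it. Figures were drawn with matplotlib 3.10.9. The steps were tested on simulated data. Alternatives were centring, quantile normalization, the median over features, single features, ratios of 0 as missing, robust eBayes, leaving out genes whose ratios all stayed within 0.2 of 0, leaving out genes on a shared value, each array left out, the FL or DTA arrays fitted alone, and the replicate number as a block.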

Additional observations from a re-analysis of the deposited data

Results flagged for a closer look

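Slc7a5 and Gars are singled out because they were called in opposite directions with the 2 constructs against the same untransfected control. FL minus DTA was itself tested, but on the same arrays, so it is not independent of that choice. For Slc7a5 FL minus DTA was 0.35 (95% interval 0.29 to 0.42, limma adjusted p = 0.000852), with 3 of 3 FL arrays above 0 and 3 of 3 DTA arrays below 0. For Gars it was −0.20 (95% interval −0.28 to −0.11, limma adjusted p = 0.00984), with 3 of 3 FL arrays below 0 and 3 of 3 DTA arrays above 0. The calls of Gars against untransfected cells were lost without FL replicate 2 and without DTA replicate 1 or 3.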

How the results depend on the processing

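Over all settings, 1914 of 2033 values of single members kept their direction and their side of the threshold, 76 fell below it, 10 rose past it and 33 changed sign. Leaving out 1 array gave 29 to 32 members called with FL, 31 to 34 with DTA, 14 to 21 in FL minus DTA, and 17 to 18 against empty vector, of which 5 to 6 were lower. The filter on barely varying genes left 9 members against empty vector, of which 7 were called, 5 higher and 2 lower. With the replicate number as a block, 14 members were called in FL minus DTA (6 higher, 8 lower), and Nars, Psph, Slc3a2, Slc7a1, Wars and Yars lost their calls. Deviations from the group means correlated at −0.043, 0.091 and −0.003 between same-numbered FL and DTA arrays, so the numbers are not taken to pair them. Of all named genes in FL minus DTA, 5646 were called, 4016 under the block and 3415 to 5836 with an array left out. Signs changed as follows, and the cause was not tested. With FL, Sesn2 gave 0.00299 after centring and −0.0321 to 0.0178 with an array left out, and Slc7a1 gave −0.0027 to 0.0519 and −0.0312 for 1 feature. In FL minus DTA, Eprs gave 0.0588 after quantile normalization. Single features there gave 0.234 (Eprs), 0.018 (Iars), −0.0623 (Lars) and −0.0588 (Slc38a2). With an array left out, differences were −0.0129 to 0.0392 (Lars), −0.0094 to 0.0139 (Phgdh), −0.00061 to 0.0412 (Slc38a2) and −0.0255 to 0.0176 (Slc6a9). Against empty vector the median over features was −0.0549 (Aars), −0.0476 (Iars) and −0.023 (Slc7a11). Single features gave −0.152 (Aars), 0.124 (Eif4ebp1), −0.0856 (Eprs), −0.0023 (Gars), −0.075 (Iars), 0.201 (Lars), −0.0165 (Mars1), −0.0586 (Slc38a2), −0.243 (Slc3a2), 0.00033 (Slc7a1) and −0.121 (Slc7a11). With an array left out, Lars gave −0.0181 to 0.00044 and Slc7a11 −0.0254 to 0.193. Signal over background was not used here, so dim features could not be set apart.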
